A study of Mus musculus with 6 samples.

Results

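The 44 collagen genes are all features of the deposited matrix whose symbol reads Col, a number, a and a number, out of 32285 genes in all. Each gene encodes 1 alpha chain of a collagen. All 44 were found in the GENCODE M21 annotation under the same identifier and symbol. They were measured in single cells of the microdissected cardiogenic region, taken on embryonic day E10.5 from wild type embryos of the C57BL/6 mouse strain. The 6 samples are 3 from females pretreated with vehicle, which were normal glycemic, and 3 from females pretreated with streptozotocin (STZ), which were hyperglycemic. All females were mated to normal glycemic males, so the groups differ in the mother's treatment, and no transgene is named in the labels. Streptozotocin destroys insulin-producing cells and is used as a model of maternal diabetes. Mesoderm outside the heart, ectoderm and endoderm were also present in the dissected tissue, per the labels.

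Cells were dissociated with TrypLE and profiled with the 10x Genomics 3′ kit, version 3. A unique molecular identifier (UMI) marks 1 captured RNA molecule, and levels are given as CPM, the count per 1000000 UMIs, over all cells of a class. A 3′ count is not scaled by transcript length, so a comparison of 2 genes is a comparison of UMI counts. The descriptions in the labels name a chromatin assay, while the titles, the library source and the kit name RNA, and the values were read as RNA counts. The matrix holds 6 libraries, told apart by the number that ends each barcode, and no file used here pairs that number with a sample. The effect of maternal streptozotocin on collagen genes was therefore not analysed, and the 6 libraries are given one by one with no group and no test between them.

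Collagens are triple helices of 3 alpha chains that may be equal or different, and the chain type sets what the protein builds. Fibrillar collagens form banded fibres, type IV collagens form the sheet of basement membranes, and fibril-associated collagens sit on the surface of fibres. Multiplexins carry heparan or chondroitin sulfate chains at basement membranes, and transmembrane collagens are held in the cell membrane. In the embryonic heart, collagens lie in the endocardial cushions that become valves, in the basement membranes of endothelium and myocardium, and in the layer under the epicardium.

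Barcodes with fewer than 2500 genes, or with over 10% mitochondrial UMIs, were set aside, which left 35962 of 53362 barcodes. The libraries had 4903 to 7136 kept cells, median depths of 30533 to 35634 UMIs per kept cell and totals of 200462921 to 248426458 UMIs. Of 19 marker lists, 15 gave a class of at least 50 cells, and 22004 cells (61.2%) fell in exactly 1 of them. A further 11601 cells passed no gate and 2294 passed several. In this count the cushion, mural and second heart field gates were used only where no gate of the other lists was passed. Among kept cells 141 of 35820 barcode sequences occurred in more than 1 library. Library 1 stood apart by Xist, the RNA of the inactive X chromosome, at 383 CPM against 0.0661 to 0.342 CPM in the other 5 libraries, while its summed collagen level of 1031 CPM lay within the range of the others, 934 to 1077 CPM.

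The classes were cardiomyocyte-like (3418 cells), endothelium-like (2074), erythroid-like (1406), myeloid-like (73), epicardium-like (1175), endocardial cushion mesenchyme-like (587), neural crest mesenchyme-like (5727), called crest mesenchyme-like below, second heart field and pharyngeal mesoderm-like (2963), paraxial mesoderm-like (325), branchiomeric muscle-like (398), neural crest and glia-like (286), called crest/glia-like below, neuron-like (225), endoderm-like (1187) and surface ectoderm-like (1977). A further class of 183 cells passed the gate for mural cells, the contractile cells around vessels. Its leading genes were Acta2, Hand1, Rgs5 and Cnn1, only Rgs5 of which was on the list, so it is called mural-gated below. Of these cells 175 had just the 4 markers the gate asks for, and 3610 kept cells had 1 fewer. Their summed mural markers, 420 CPM, lay below their crest mesenchyme markers (588 CPM) and cardiomyocyte markers (500.1 CPM). No marker list held a collagen gene. The cushion-like and endothelium-like classes overlapped in their markers, since the median cushion-like cell had a UMI of 3 of the 8 endothelial markers and the median endothelium-like cell of 5 of the 8 cushion markers. Hemoglobin stood at 88.8 to 153 CPM outside the erythroid-like class. The part of free RNA, which comes from outside the cell, was not tested.

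The 44 genes together held 0.102% of all UMIs, or 1017 CPM. Of them 26 reached 10 CPM in at least 1 class, against 42.3% of all 27973 genes with a UMI. The other 18 stayed under 10 CPM in every class, and 7 of these under 1 CPM. Col6a2 lay just inside this limit at 11.1 CPM in epicardium-like cells, and Col20a1 just outside it at 9.87 CPM in crest/glia-like cells. Collagen UMIs were concentrated in few genes, with 51.3% of them in the top 6. By type, the 11 fibrillar genes held 36.2% of collagen UMIs, the 6 type IV genes 22.2%, the 4 transmembrane genes 13.5%, the 2 multiplexins 11.4% and the 9 fibril-associated genes 8.43%.

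**Figure D1:**
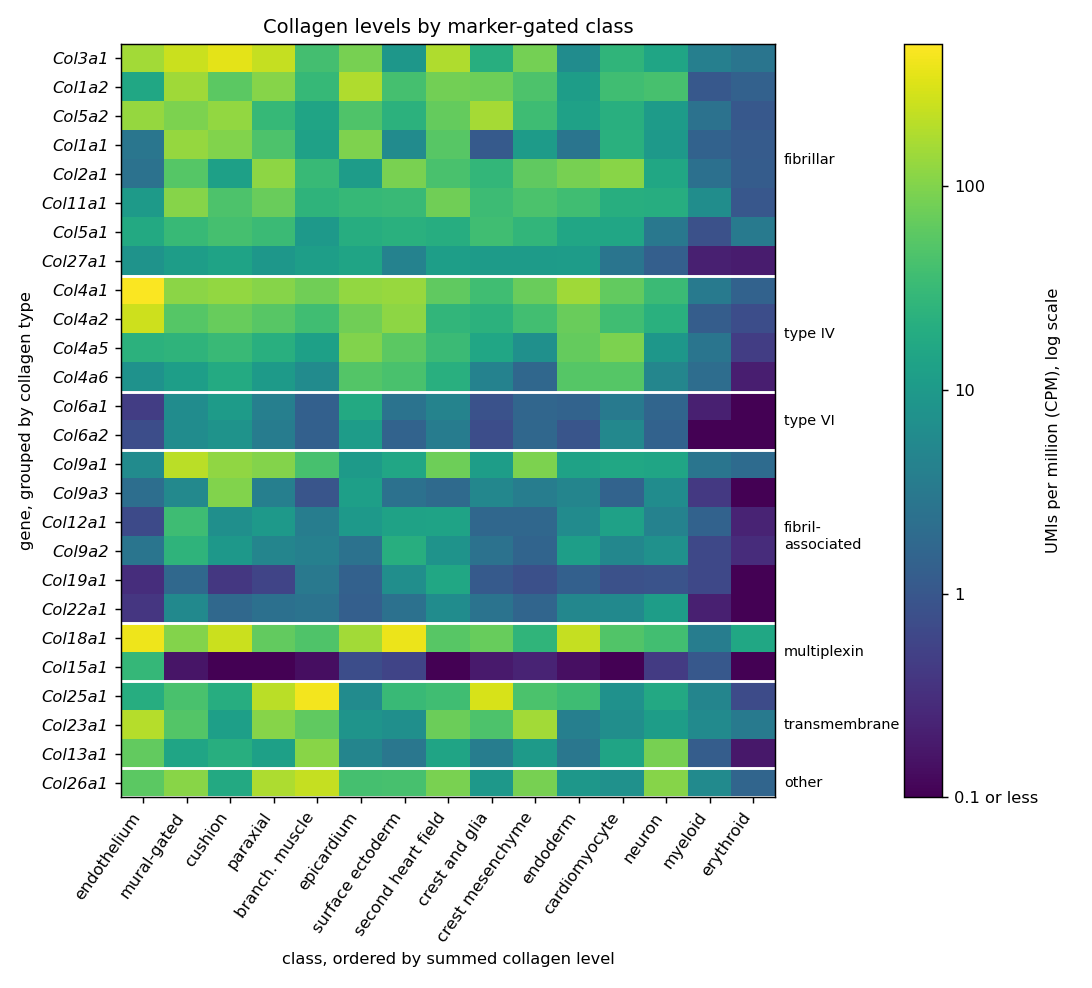
Level of the 26 collagen genes that reached 10 CPM (vertical axis, by type) in the 15 marker-gated classes (horizontal axis, ordered by summed collagen level). Colour is CPM on a log scale, with 0.1 CPM or less drawn as 0.1. Col4a1 and Col4a2 are brightest in endothelium-like cells, Col15a1 is near the bottom of the scale outside them, and the myeloid-like and erythroid-like columns are dark throughout apart from Col18a1 at 15.9 CPM in erythroid-like cells.

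Summed over all 44 genes, endothelium-like cells had the highest collagen level, 1895 CPM, and cells of the blood lineages the lowest, 61.1 CPM in myeloid-like and 40.9 CPM in erythroid-like cells. In libraries 1 to 6 the endothelium-like sum was 2147, 1823, 2196, 1682, 1644 and 1903 CPM. Mural-gated cells followed at 1679 CPM, cushion-like cells at 1591 CPM and paraxial mesoderm-like cells at 1558 CPM. The ratio of endothelium-like to mural-gated cells was 1.13 (95% interval 1.11 to 1.15, counting error only), with endothelium-like cells higher in the 3 libraries that had at least 30 mural-gated cells. This lead was small, and the ratio was 1.05 when endothelium-like cells that also passed the cushion gate were left out. Classes built from clusters put cushion-like cells above endothelium-like cells by 1.081 times.

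Middle levels were found in branchiomeric muscle-like (1263 CPM), epicardium-like (1158), surface ectoderm-like (1138) and second heart field-like cells (1108). Lower ones were found in crest/glia-like (924 CPM), crest mesenchyme-like (880.2), endoderm-like (879.6), cardiomyocyte-like (659) and neuron-like cells (512). The libraries did not separate the middle classes, with ranges of 967 to 1317 CPM in epicardium-like, 1049 to 1218 CPM in surface ectoderm-like and 1009 to 1245 CPM in second heart field-like cells. Cardiomyocyte-like cells, at 626 to 712 CPM, lay below all 3 of these ranges in every library.

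The make-up of a class's collagen also differed. Fibrillar genes gave 49.5% of collagen UMIs in mural-gated, 49.4% in second heart field-like and 47.1% in cushion-like cells, but 18.0% in endothelium-like cells. Type IV genes gave 40.5% in endothelium-like and 39.3% in endoderm-like cells. Multiplexins gave 34.7% in surface ectoderm-like cells, nearly all of it Col18a1. Transmembrane genes gave 47.4% in branchiomeric muscle-like and 38.0% in crest/glia-like cells, where Col25a1 led.

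**Figure D2:**
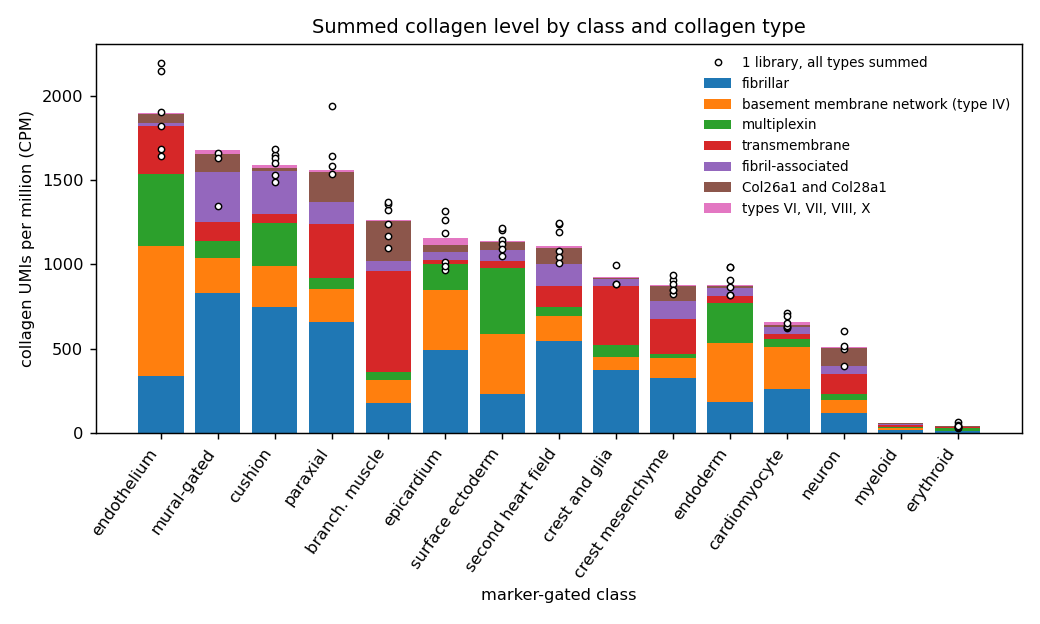
Stacked bars give the summed collagen level in CPM for each marker-gated class (horizontal axis), divided by collagen type (colour). Open circles are single libraries with at least 30 cells of the class, all types summed; for mural-gated cells these are libraries 1 to 3, whose values of 1346 to 1661 CPM lie below the bar over all 6. The endothelium-like bar is the highest at 1895 CPM and the erythroid-like bar the lowest at 40.9 CPM.

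Of the 26 genes at 10 CPM, 25 could be compared between their highest and next class in at least 2 libraries, and 11 held the same order in every library compared, against 46.8% of 8651 genes in all. The highest class was at least 2-fold over the next for 6 genes, Col4a1, Col4a2, Col9a3, Col12a1, Col15a1 and Col19a1, against 16.2% of all genes at 10 CPM. Neither share stood far from that of all genes. The median ratio of highest to next class was 1.35 for the collagens and 1.15 for all genes. Endothelium-like, epicardium-like and mural-gated cells were each the highest class of 5 collagen genes. Of all 11843 genes at 10 CPM, they were the highest class of 829, 600 and 647. With classes from clusters 14 of the 26 genes kept their highest class, with at least 2 UMIs per marker 18, with 1 marker more for every list 19 and without the mural gate 21.

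The type IV genes come first because their chains make the basement membrane of every epithelium and vessel. Col4a1 and Col4a2, whose chains join in the common form of type IV collagen, stood highest in endothelium-like cells. Col4a1 was at 525, 448, 516, 434, 442 and 491 CPM in endothelium-like cells of libraries 1 to 6, and at 144, 152, 166, 148, 145 and 145 CPM in endoderm-like cells, the next class. The libraries did not overlap, and the lowest endothelium-like library was above the highest endoderm-like one. Over all cells the levels were 476 and 149 CPM, a ratio of 3.20 (3.11 to 3.29). Col4a2 was at 283, 253, 281, 228, 244 and 259 CPM in endothelium-like cells, and its ratio to surface ectoderm-like cells (117 CPM) was 2.21 (2.15 to 2.28), in the same order in 6 of 6 libraries. With classes from clusters the Col4a2 ratio lay under 2-fold, at 0.76 on the log2 scale. At 5000 UMIs per cell, Col4a1 had a UMI in 81.4% of endothelium-like cells (98.1% before thinning) and in 0.498% of erythroid-like cells (4.62%). The part of free RNA in the erythroid-like share was not tested. The median depth before thinning was 64639 UMIs in erythroid-like cells and 25261 to 46019 UMIs in the classes outside the blood lineages.

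Col4a1 and Col4a2 lie head to head on chromosome 8 (mm10), Col4a1 (ENSMUSG00000031502) on the minus strand from 11198423 to 11312826 and Col4a2 (ENSMUSG00000031503) on the plus strand from 11312805 to 11449287. Their annotated starts are 21 bases apart and the genes overlap by 22 bases. Across the 15 classes their levels had a Spearman rho of 0.975, as a description over classes that share libraries and depth. The ratio of Col4a1 to Col4a2 UMIs ran from 1.13 in surface ectoderm-like to 2.24 in second heart field-like cells outside the blood classes. The promoter windows below, from RefSeq on GRCm38.p6, run from 250 bases before to 50 bases after each start and are shown because the 2 genes share this stretch of DNA and moved together across classes. Capitals mark the GC box (GGGCGG) and the CCAAT box, each searched on both strands. Col4a1 is at chr8:11312777-11313076 on the minus strand, and Col4a2 at chr8:11312555-11312854 on the plus strand; the windows overlap by 78 bases.
Col4a1: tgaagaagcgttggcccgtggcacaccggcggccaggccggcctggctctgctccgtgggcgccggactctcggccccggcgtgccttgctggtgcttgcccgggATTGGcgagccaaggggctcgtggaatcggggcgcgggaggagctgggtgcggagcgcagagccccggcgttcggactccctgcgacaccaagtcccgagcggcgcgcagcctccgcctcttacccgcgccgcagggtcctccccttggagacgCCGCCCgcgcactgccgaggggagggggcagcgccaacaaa
Col4a2: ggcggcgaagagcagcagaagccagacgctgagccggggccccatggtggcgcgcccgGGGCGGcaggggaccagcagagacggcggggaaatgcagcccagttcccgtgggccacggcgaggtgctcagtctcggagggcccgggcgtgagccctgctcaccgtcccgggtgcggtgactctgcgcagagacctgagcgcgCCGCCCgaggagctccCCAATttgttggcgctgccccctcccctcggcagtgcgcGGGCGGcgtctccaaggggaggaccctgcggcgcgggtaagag

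The Col4a1 window held 1 GC box and 1 CCAAT box, and the Col4a2 window 3 GC boxes and 1 CCAAT box. The GC box of Col4a1 lies where the windows overlap and is the last of the 3 of Col4a2, read on the other strand. A GC box occurred in 35.7% and a CCAAT box in 37.4% of the 32851 windows in the table. Of the 44 collagen genes 35 had a window, and 22 of these held a GC box, 13 a CCAAT box, 5 the letters TATAAA and 4 the letters CAGGAAG, the core bound by ETS factors. TATAAA occurred in 13.6% and CAGGAAG in 13.3% of all windows. These are letter matches and show no binding.

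Col4a5 and Col4a6, the chains of the basement membranes under smooth muscle and some epithelia, had another pattern. Col4a5 was at 98.5 CPM in epicardium-like, 92.5 CPM in cardiomyocyte-like and 67.7 CPM in endoderm-like cells, and at 24.1 CPM in endothelium-like cells. In libraries 1 to 6 its epicardium-like level was 99.0, 121, 93.2, 94.3, 82.8 and 95.1 CPM and its cardiomyocyte-like level 85.6, 93.3, 100.3, 96.3, 91.1 and 93.9 CPM. The libraries of these classes overlapped, and the order held in 3 of 6. Col4a6 stood at 53.8 CPM in cardiomyocyte-like, 52.6 in endoderm-like and 51.9 CPM in epicardium-like cells, levels whose order was not settled by the libraries (4 of 6). As a result the ratio of Col4a1 to Col4a5 UMIs was 19.7 in endothelium-like but 0.704 in cardiomyocyte-like cells.

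Col4a5 and Col4a6 are also head to head, on the X chromosome, with 1309 bases between their annotated starts, and their Spearman rho across the 15 classes was 0.971. Their ratio ran from 1.29 in endoderm-like to 4.15 in crest mesenchyme-like cells. Among the 325 pairs of collagen genes at 10 CPM the median rho was 0.389 and 5 pairs reached 0.9. These included pairs on different chromosomes, Col1a1 (chromosome 11) with Col6a1 (0.907) and with Col6a2 (0.914), both on chromosome 10. The RefSeq windows of Col4a5 and Col4a6 do not overlap. They are shown for comparison with the pair on chromosome 8, with the same marks: Col4a6 at chrX:141474027-141474326 on the minus strand has 1 GC box, and Col4a5 at chrX:141475169-141475468 on the plus strand has 1 GC box and 1 CCAAT box.
Col4a6: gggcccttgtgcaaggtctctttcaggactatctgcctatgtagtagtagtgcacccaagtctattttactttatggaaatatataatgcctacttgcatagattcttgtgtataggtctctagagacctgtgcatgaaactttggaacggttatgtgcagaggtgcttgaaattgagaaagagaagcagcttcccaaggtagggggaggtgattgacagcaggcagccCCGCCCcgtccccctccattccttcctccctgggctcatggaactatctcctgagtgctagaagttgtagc
Col4a5: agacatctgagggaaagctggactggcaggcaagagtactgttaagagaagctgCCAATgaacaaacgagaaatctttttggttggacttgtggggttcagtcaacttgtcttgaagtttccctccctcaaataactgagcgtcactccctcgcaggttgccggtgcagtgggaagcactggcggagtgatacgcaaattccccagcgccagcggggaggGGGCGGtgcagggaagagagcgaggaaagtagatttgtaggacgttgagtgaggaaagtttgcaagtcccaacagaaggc

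The remaining type IV chains, Col4a3 and Col4a4, are known from the mature kidney filter. They reached 2.03 and 3.63 CPM, both highest in endoderm-like cells, and did not pass 10 CPM in any class. These 2 genes are head to head as well, on chromosome 1, with 72 bases between their annotated starts. Their rho across the 15 classes was 0.378, at these low levels.

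Among the multiplexins, Col18a1 (ENSMUSG00000001435, chromosome 10, 77052178 to 77166548), whose cleaved end is endostatin, was high in several epithelia as well as in endothelium. It was at 400.2 CPM in endothelium-like and 394 CPM in surface ectoderm-like cells, then 254 CPM in cushion-like and 240.0 CPM in endoderm-like cells. Libraries 1 to 6 gave 434, 413, 420.1, 356, 357 and 403 CPM in endothelium-like cells and 438, 426, 436, 365, 347 and 345 CPM in surface ectoderm-like cells. The 2 classes overlapped library by library. Their ratio of 1.02 (0.999 to 1.03) held its direction in 2 of 6 libraries and turned under 7 of the other settings tried, leaving out library 6 among them, so no order was set between them. Endothelium-like cells had a Col18a1 UMI in 81.4% of cells at 5000 UMIs (98.2% before thinning) and surface ectoderm-like cells in 79.9% (96.8%).

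Col18a1 was also the only collagen above 3.33 CPM in erythroid-like cells, at 15.9 CPM. Libraries 1 to 6 had 15.1, 16.5, 17.1, 18.0, 13.7 and 14.6 CPM there. All 6 lay above the level of Col4a1 in the same cells, 1.47 CPM. The part of free RNA in these levels was not tested. At 5000 UMIs per cell 9.39% of erythroid-like cells had a Col18a1 UMI (57.5% before thinning). Myeloid-like cells had 3.75 CPM.

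Col15a1 (ENSMUSG00000028339, chromosome 4), the other multiplexin, known from capillaries and muscle, was found almost only in endothelium-like cells. It was at 29.4 CPM there (28.3 to 30.6) and at most 1.04 CPM in every other class, a ratio to myeloid-like cells of 28.2 (12.1 to 86.9) that rests on 5 UMIs in the latter. On the log2 scale this ratio was 4.82, and it ran from 4.36 without library 4 to 5.61 without library 5 and was 3.23 in thinned counts. The myeloid-like class had too few cells for a comparison by library. In endothelium-like cells of libraries 1 to 6 its level was 17.2, 26.0, 33.7, 46.4, 36.0 and 30.5 CPM, a spread of 2.69-fold with library 1 lowest and library 4 highest. Its UMIs were unevenly held, with 84.6% of them in the top 10% of endothelium-like cells. Its promoter window is printed because its ratio of highest to next class was the largest of the 26 genes; at chr4:47207762-47208061 on the plus strand (GRCm38.p6), it held neither a GC box nor a CCAAT box, so no letters are in capitals. The window follows the RefSeq start, which lies before the GENCODE start at 47208161.
Col15a1: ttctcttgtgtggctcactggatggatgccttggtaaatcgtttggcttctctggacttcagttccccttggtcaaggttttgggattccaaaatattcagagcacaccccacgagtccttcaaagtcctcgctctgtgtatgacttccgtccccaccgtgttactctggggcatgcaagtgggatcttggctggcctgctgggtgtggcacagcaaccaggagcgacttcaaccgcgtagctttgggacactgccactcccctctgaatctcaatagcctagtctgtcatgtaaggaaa

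Endothelium-like cells include the endocardium, the inner lining of the heart, and Npr3 is a known endocardial marker. Cells were divided by an Npr3 UMI in counts thinned to 5000 UMIs per cell, 1098 cells with one against 976 without. Some cells without one at this depth had an Npr3 UMI before thinning. Col15a1 was at 9.11 CPM with and 44.5 CPM without Npr3, a ratio of 0.205 (0.147 to 0.280), lower with Npr3 in 6 of 6 libraries. Of 14 collagen genes at 10 CPM on either side, 5 were at least 2-fold higher with Npr3, against 1.28% of all genes, and Col15a1 alone was at least 2-fold lower, against 1.31%. The 5 were Col26a1 (82.0 against 28.9 CPM), Col13a1 (98.2 against 39.3), Col23a1 (272 against 118), Col4a5 (31.1 against 14.1) and Col4a6 (11.1 against 5.33). All 5 were higher with Npr3 in 6 of 6 libraries.

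Col3a1, at 216 against 110.2 CPM, and Col5a2, at 172 against 94.3 CPM, were also higher with Npr3, by 1.96 and 1.83 times. Col4a1, Col4a2 and Col18a1 differed less, with ratios of 1.35, 1.35 and 1.34. The summed cushion markers were at 1563 CPM with and 1469 CPM without Npr3, and the endothelial markers at 2165 and 2514 CPM. The summed markers of some other classes were lower with Npr3. Neuron markers stood at 65.0 against 116 CPM (0 of 8 higher with Npr3) and endoderm markers at 45.4 against 72.1 CPM (4 of 8 higher, 2 at 0). Crest mesenchyme markers stood at 22.04 against 47.3 CPM (3 of 8 higher) and surface ectoderm markers at 3.64 against 10.9 CPM (2 of 8 higher). Cardiomyocyte markers went the other way, at 246 against 212 CPM (6 of 8 higher). Their part was not tested. The share of endothelium-like cells with an Npr3 UMI before thinning was 87.6, 83.2, 77.6, 76.7, 74.1 and 81.7% in libraries 1 to 6. Library 1, lowest for Col15a1, had the highest of these shares. Among cells without an Npr3 UMI before thinning its Col15a1 level was 43.7 CPM, against 56.2 to 99.7 CPM in the others. Among cells with one, its level was 14.0 CPM, against 19.9 to 32.4 CPM. The endothelial marker Cldn5 had a like order, at 93.2, 150.3, 192, 221, 219 and 166 CPM in libraries 1 to 6, and Emcn (463 CPM) and Egfl7 (424 CPM) were also lowest in library 1. So were Kdr (167 CPM), Esam (122 CPM) and, by little, Cdh5 (251 CPM, as in library 3). Pecam1 was not, at 229 CPM in library 1 and lowest in library 5 (202 CPM). Tek was at 252 CPM in library 1 and lowest in library 4 (236 CPM). The part of the Npr3 share and of these markers in the differences between libraries was not tested.

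The cushion gate divided Col15a1 more sharply still. Among endothelium-like cells, the 814 that also passed the cushion gate had 0.246 CPM of Col15a1 at 5000 UMIs and the 1260 others 42.2 CPM, a ratio of 0.00582 (0.000147 to 0.0327). Col9a1, Col1a2, Col25a1, Col4a6 and Col5a1 were 2.05 to 2.44 times higher in the cells that passed, while Col4a1 was at 430.5 against 474 CPM. At least 2-fold higher levels were seen in 2.33% and lower ones in 2.2% of all genes. The summed endothelial markers were at 1514 CPM in the cells that passed against 2856 CPM in the others and the cardiomyocyte markers at 339 against 159 CPM, and their part was not tested. Without the cells that passed the cushion gate, endothelium-like cells had 50.4 CPM of Col15a1 and 103 CPM of Col3a1.

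**Figure D3:**
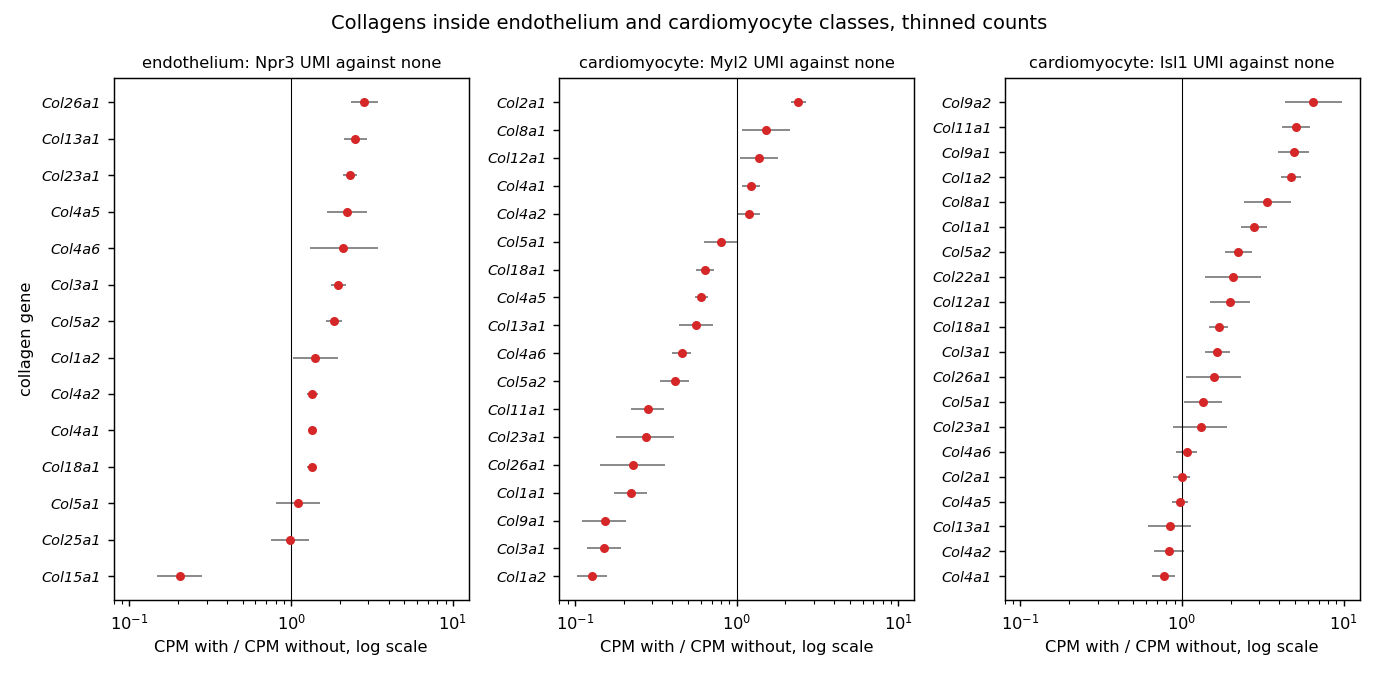
Ratio of the level in cells with a UMI of the marker to that in cells without (horizontal axis, log scale) for each collagen gene at 10 CPM on either side in counts thinned to 5000 UMIs per cell (vertical axis). Points are ratios and lines their exact 95% intervals, which cover counting error only. Col15a1 stands alone on the left for Npr3 in endothelium-like cells, and Col2a1 at the top for Myl2 in cardiomyocyte-like cells.

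The fibrillar genes divided the mesenchymal classes. Col3a1 (ENSMUSG00000026043, chromosome 1, 45311538 to 45349706), the main fibre chain of distensible tissues such as vessels, was highest in cushion-like cells at 349 CPM (341 to 358), followed by mural-gated (253), paraxial mesoderm-like (234) and second heart field-like cells (182). In cushion-like cells it was at 354, 338, 310, 381, 358 and 362 CPM in libraries 1 to 6, and in mural-gated cells at 196, 172 and 260 CPM in libraries 1 to 3. All cushion-like values lay above all mural-gated ones. Endothelium-like cells had 153 CPM and surface ectoderm-like cells 9.02 CPM.

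Col1a1 and Col1a2, the chains of type I collagen, were not matched in every class. Col1a2 was highest in epicardium-like cells at 180.2 CPM, with 185, 183, 219, 159, 160 and 135 CPM in libraries 1 to 6, and next in mural-gated cells at 149 CPM. Col1a1 was at 128 CPM in mural-gated, 99.8 CPM in cushion-like and 97.1 CPM in epicardium-like cells, and the order of the first 2 held in 1 of 3 libraries. In cushion-like cells Col1a1 was highest in library 4, at 160 CPM against 72.2 to 102 CPM in the other 5. The ratio of Col1a1 to Col1a2 UMIs was 1.71 in cushion-like cells but 0.172 in endothelium-like and 0.0147 in crest/glia-like cells. By library it ran from 0.894 to 2.29 in cushion-like and from 0.06 to 0.614 in endothelium-like cells, and from 0 to 0.0167 in crest/glia-like cells over 3 libraries. In crest/glia-like cells Col1a2 was at 76.9 CPM and Col1a1 at 1.13 CPM. The latter rested on 12 UMIs and was the lowest Col1a1 level outside the blood classes. Col1a1 had 107 UMIs in erythroid-like and 7 in myeloid-like cells, and no order was set between these classes and crest/glia-like cells. Without library 3, which had 20 crest/glia-like cells and is not among the 3, Col1a1 was at 0.51 CPM and Col1a2 at 77.3 CPM in crest/glia-like cells. Over all 6 libraries a Col1a2 UMI was found in 28.7% and a Col1a1 UMI in 0.699% of cells at 5000 UMIs (75.5% and 2.45% before thinning).

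Col2a1 (ENSMUSG00000022483, chromosome 15, 97975602 to 98004695), the main collagen of cartilage, was found at E10.5 in heart muscle and epithelia. It was at 119 CPM in paraxial mesoderm-like, 112 CPM in cardiomyocyte-like, 91.3 CPM in surface ectoderm-like and 87.7 CPM in endoderm-like cells, and at 2.45 CPM in endothelium-like cells. In cardiomyocyte-like cells it was at 102, 130, 88.3, 115, 110 and 119 CPM in libraries 1 to 6, and in paraxial mesoderm-like cells at 166, 150, 123 and 84.9 CPM in libraries 2, 4, 5 and 6. These ranges overlap, and the order of the first 2 classes held in 3 of 4 libraries. It made up 17.0% of the collagen UMIs of cardiomyocyte-like cells, more than any other chain. At 5000 UMIs 31.0% of cardiomyocyte-like cells had a Col2a1 UMI, against 0.916% of endothelium-like and 0.427% of erythroid-like cells. Before thinning the shares were 67.0%, 5.98% and 4.48%.

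Inside the cardiomyocyte-like class, cells were divided by Myl2, a ventricular light chain, and by Isl1, a factor of second heart field progenitors. Col2a1 was at 139.9 CPM in the 1746 cells with a Myl2 UMI and at 58.2 CPM in the 1671 cells without, a ratio of 2.40 (2.16 to 2.68), higher in 6 of 6 libraries. It was the only collagen gene at least 2-fold higher with Myl2, against 1.38% of all genes. Most other fibrillar and fibril-associated chains had the opposite order: Col1a2 was at 11.8 against 92.4 CPM, Col3a1 at 9.51 against 62.6, Col9a1 at 5.50 against 36.0, Col1a1 at 10.2 against 46.2 and Col11a1 at 10.9 against 38.7 CPM. Of 18 collagen genes, 9 were at least 2-fold lower with Myl2, against 5.11% of all genes. With Myl2 the summed second heart field markers were at 182 against 558 CPM and the epicardial markers at 32.0 against 133 CPM, so cells without Myl2 also had more RNA of these lists, and their part in the collagen differences was not tested.

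In the same thinned counts 735 cells had an Isl1 UMI and 2682 had none. Cells with one had more Col9a2 (19.3 against 2.98 CPM), Col11a1 (66.1 against 13.1), Col9a1 (54.4 against 11.1), Col1a2 (134 against 28.5) and Col8a1 (19.9 against 5.89). These 5 were higher with Isl1 in 6 of 6 libraries. Of 20 collagen genes, 8 were at least 2-fold higher with Isl1, against 4.42% of all genes, and none at least 2-fold lower, against 1.8%. Col2a1 did not follow, at 99.3 and 100.1 CPM, a ratio of 0.992 (0.882 to 1.12). Beside this, the second heart field markers other than Isl1 were at 293 against 272 CPM (5 of 7 higher with Isl1). The crest mesenchyme markers were at 343 against 199 CPM (8 of 8 higher) and the mural markers at 318 against 80.6 CPM (4 of 8 higher). The endoderm markers were at 19.3 against 8.203 CPM (6 of 8 higher) and the cardiomyocyte markers at 28597.8 against 41329.5 CPM (0 of 8 higher). The part of these markers was not tested.

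Second heart field-like cells were also divided by Sox9, a factor that drives collagen genes in cartilage. In counts thinned to 5000 UMIs, the 427 cells with a Sox9 UMI had 85.2 CPM of Col2a1 against 36.8 CPM in the 2536 cells without, a ratio of 2.31 (1.94 to 2.75). Col9a1 was at 153 against 73.3 CPM, a ratio of 2.08 (1.83 to 2.37). Both were higher with Sox9 in 6 of 6 libraries. They were the 2 of 20 collagen genes at least 2-fold higher, against 0.476% of all genes, and 0.498% of all genes were at least 2-fold lower. Col19a1, at 10.8 against 21.4 CPM, had the lowest ratio, 0.504 (0.314 to 0.772), but was lower with Sox9 in only 3 of 6 libraries. Smaller rises that held in 6 of 6 libraries were those of Col4a2, at a ratio of 1.54 (1.19 to 1.99), and Col3a1, at 1.51 (1.38 to 1.66). So did those of Col4a1, at 1.40 (1.18 to 1.64), and Col23a1, at 1.31 (1.12 to 1.52). Col1a2 had a ratio of 0.814 (0.684 to 0.963) and Col4a5 of 0.757 (0.574 to 0.984), each lower in 5 of 6 libraries. The interval of Col11a1, another cartilage chain, took in 1, at 0.846 (0.706 to 1.007). The summed paraxial mesoderm markers were at 44.03 against 25.7 CPM, though only 3 of 8 were higher with Sox9 and 1 was at 0. The cardiomyocyte markers were at 156 against 222 CPM (2 of 8 higher). The part of these markers was not tested.

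In crest mesenchyme-like cells the same split gave smaller differences, and no collagen gene reached 2-fold in either direction, against 0.0242% of all genes higher and 0% lower by that much. The 1354 cells with Sox9 had 72.4 CPM of Col2a1 against 57.1 CPM in the 4373 without, a ratio of 1.27 (1.14 to 1.41), higher in 5 of 6 libraries. Col23a1 was at 176 against 134 CPM, a ratio of 1.32 (1.23 to 1.41), higher in 6 of 6 libraries. Col9a1 was lower with Sox9, at 68.8 against 99.6 CPM, in 6 of 6 libraries. The summed crest/glia markers were at 47.7 against 33.7 CPM (5 of 8 higher with Sox9) and the endoderm markers at 15.1 against 10.4 CPM (4 of 8 higher). The cushion markers other than Sox9 were at 99.4 against 137 CPM (3 of 7 higher). The part of these markers was not tested. Whether the difference between the classes exceeds the spread over embryos was not tested.

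The other fibrillar chains were spread more evenly. Col5a2, a chain that limits fibre width, was highest in crest/glia-like cells at 158 CPM and next in endothelium-like cells at 129 CPM, with cushion-like cells at 124 CPM. Its partner Col5a1 was at 40.9 CPM in cushion-like and 37.2 CPM in crest/glia-like cells, whose order held in 2 of 3 libraries. Col11a1, a chain of the thin fibres of cartilage, was at 107 CPM in mural-gated, 79.7 CPM in second heart field-like and 72.4 CPM in paraxial mesoderm-like cells. Its partner Col11a2 stayed under 1 CPM in every class. Col27a1 lay between 1.32 and 14.6 CPM outside the blood classes, highest in epicardium-like and cushion-like cells (13.8 CPM). Col24a1 and Col5a3 reached 6.99 and 1.41 CPM.

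Among the fibril-associated genes the 3 chains of type IX collagen, which form 1 heterotrimer in cartilage, did not share 1 highest class. Col9a3 (ENSMUSG00000027570, chromosome 2, 180597790 to 180622189) was highest in cushion-like cells at 101 CPM (96.4 to 105.3), against 12.3 CPM in epicardium-like cells, a ratio of 8.202 (7.52 to 8.96). The 6 libraries gave 108, 78.7, 196, 91.6, 69.0 and 67.7 CPM in cushion-like cells and 17.2, 13.8, 16.8, 6.16, 5.52 and 6.38 CPM in epicardium-like cells. Every cushion-like library was above every epicardium-like one, and library 3 stood highest. Without library 3 the cushion-like level was 85.3 CPM. Library 3 also had the highest levels of the cushion markers Postn (178 CPM, against 67.3 to 131 in the others), Msx1 (228 CPM, against 110 to 138) and Hapln1 (1639 CPM, against 1177 to 1352). It had the lowest Tbx20 (814 CPM, against 859 to 989), and was neither highest nor lowest for Gata4, Gata5, Smad6 and Sox9. The part of these markers in the higher Col9a3 was not tested. With classes from clusters the level was 36.4 CPM and the ratio to epicardium-like cells 1.19 on the log2 scale. The next class was then endothelium-like at 19.6 CPM, and the ratio of 1.86 to it lay under 2-fold.

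Col9a1 was highest in mural-gated cells at 209.7 CPM, with 278, 141 and 352 CPM in libraries 1 to 3, and next in cushion-like cells at 119.9 CPM. In cushion-like cells the 6 libraries had 97.6, 129, 143, 128, 113 and 121 CPM, which overlap with the mural-gated value of library 2. Neural crest mesenchyme-like cells had 93.1 CPM of Col9a1 but 3.66 CPM of Col9a3. Col9a2 was highest in mural-gated (25.8 CPM) and surface ectoderm-like cells (21.1 CPM). The ratio of Col9a1 to Col9a3 UMIs thus ran from 0.842 in epicardium-like and 1.19 in cushion-like to 44.4 in branchiomeric muscle-like cells outside the blood classes, and the rho of the pair across all 15 classes was 0.375. Erythroid-like cells had a ratio of 45.8 on 4 UMIs of Col9a3.

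**Figure D4:**
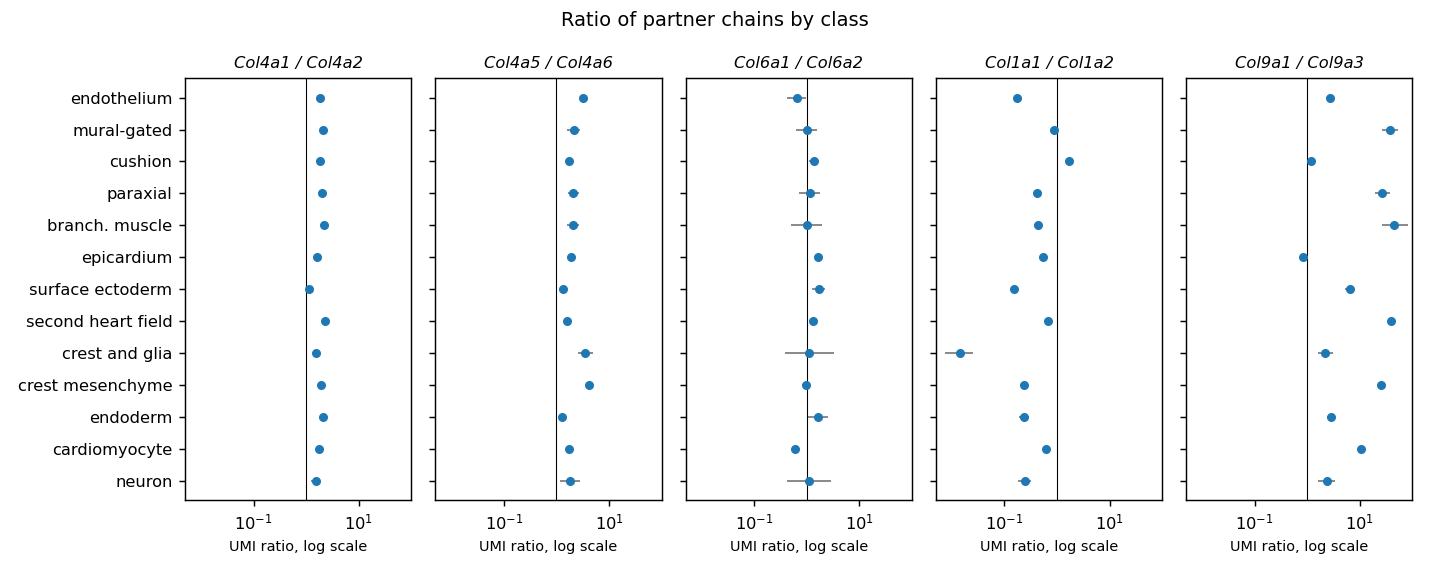
Ratio of the UMIs of 2 chains of the same collagen (horizontal axis, log scale) in the 13 classes outside the blood lineages (vertical axis), for 5 pairs of chains. Points are ratios and lines exact 95% intervals for counting error. Col4a1 to Col4a2, Col4a5 to Col4a6 and Col6a1 to Col6a2 stay within narrow bands, while Col1a1 to Col1a2 falls to 0.0147 in crest/glia-like cells and Col9a1 to Col9a3 rises to 44.4 in branchiomeric muscle-like cells.

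Col12a1, a chain of dense connective tissue, was at 35.6 CPM in mural-gated and 14.2 CPM in second heart field-like cells, a ratio of 2.51 (2.17 to 2.89) that held in 2 of 3 libraries. In second heart field-like cells libraries 1 to 6 had 23.0, 30.5, 15.9, 12.1, 8.73 and 8.56 CPM. Libraries 1 and 2 were highest. Col22a1, known from tissue junctions, reached 11.6 CPM in neuron-like cells and lay under 10 CPM elsewhere.

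Col19a1 (ENSMUSG00000026141, chromosome 1, 24261890 to 24587472), a minor chain on fibre surfaces, had the widest spread between libraries in its highest class of the 26 genes. It was at 15.9 CPM in second heart field-like and 6.81 CPM in surface ectoderm-like cells, a ratio of 2.34 (2.08 to 2.62) that was below 2-fold without library 6 (0.90 on the log2 scale). In second heart field-like cells libraries 1 to 6 had 1.35, 0.841, 16.7, 20.1, 16.7 and 25.8 CPM. Libraries 1 and 2 lay far below the other 4, a spread of 30.7-fold, while in surface ectoderm-like cells the same libraries had 3.91, 8.05, 8.47, 9.39, 5.62 and 4.83 CPM with no such gap. Col19a1 RNA came from few cells: 11 of 300 second heart field-like cells of library 1 (3.67%) and 6 of 308 of library 2 (1.95%) had a UMI, against 10.9 to 12.2% in libraries 3 to 6. The top 10% of cells held 100% of its UMIs, and the most in 1 cell was 44.

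Markers of the class went both ways across the libraries. Wnt2 had the order of Col19a1, at 49.0 and 49.2 CPM in libraries 1 and 2 against 86.3 to 88.4 CPM in libraries 3 to 6. Osr1 was at 63.2 and 45.6 CPM in libraries 1 and 2 and at 141 to 157 CPM in libraries 3 to 6, Tbx5 at 29.8 and 34.2 against 81.3 to 110.2 CPM and Foxf1 at 132 and 137 against 223 to 354 CPM. Tlx1 had the opposite order, 56.3 and 76.1 against 17.5 to 31.3 CPM, as had Isl1, 184 and 143 against 94.3 to 108 CPM. So had Tbx1, 58.7 and 67.1 against 40.2 to 50.6 CPM. Foxf2 had no such gap, at 20.9 and 17.2 against 18.9 to 23.0 CPM. Cxcl13, the leading gene of the class, was at 3.64 and 7.67 against 198 to 259 CPM. The cells that passed this gate were thus not of 1 make-up in the 6 libraries, and the part of that in the Col19a1 values was not tested.

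**Figure D5:**
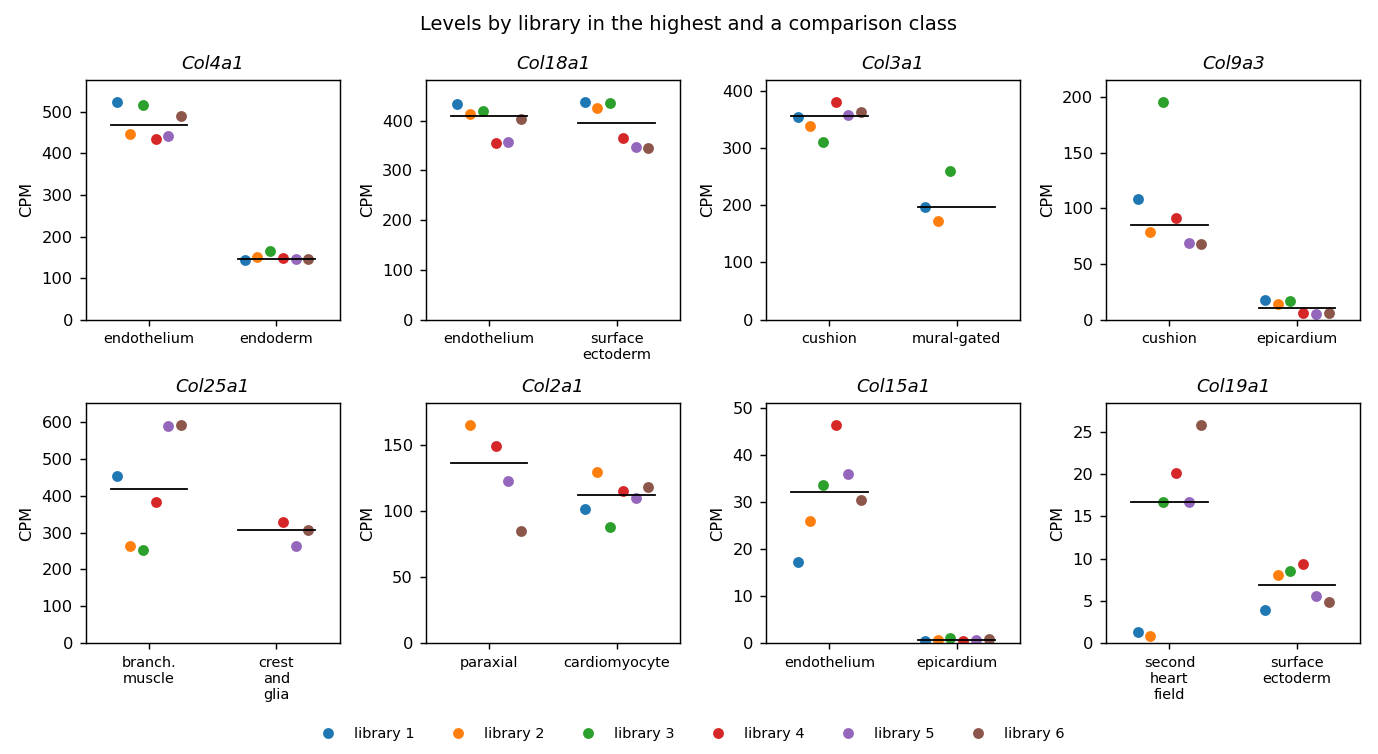
Level in CPM (vertical axis) of 8 collagen genes in the 6 libraries (colours), in the highest class and a comparison class (horizontal axis) for each gene; the line is the median of the libraries shown, and libraries with under 30 cells of a class are left out. Endothelium-like and endoderm-like values of Col4a1 do not overlap, those of Col18a1 in endothelium-like and surface ectoderm-like cells do, and Col19a1 in second heart field-like cells is near 1 CPM in libraries 1 and 2.

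Of the transmembrane genes, Col25a1 and Col13a1 were highest in branchiomeric muscle-like and Col23a1 in endothelium-like cells. Of the 398 branchiomeric muscle-like cells 274 had just the 4 markers the gate asks for, and the class held more RNA of the second heart field markers (652 CPM) than of its own (482 CPM). Col26a1 was highest in this class too, and the part of its make-up in these levels was not tested. Col25a1 (ENSMUSG00000058897, chromosome 3, 130131501 to 130599877), which is needed for motor axons to enter muscle, was at 426 CPM (415 to 436) in branchiomeric muscle-like and 302 CPM in crest/glia-like cells, then 204 CPM in paraxial mesoderm-like cells. In branchiomeric muscle-like cells of libraries 1 to 6 it was at 454, 265, 252, 385, 589 and 594 CPM, and in crest/glia-like cells of libraries 4 to 6 at 329, 263 and 308 CPM. Within each of these 3 libraries the muscle-like value was higher, but the 2 ranges overlap. Libraries 2 and 3, lowest for Col25a1 in branchiomeric muscle-like cells, had the highest Myod1 there (9.11 and 11.7 against 2.20 to 3.08 CPM), the highest Cdh15 (22.0 and 29.0 against 8.31 to 17.1 CPM) and the lowest Lhx2 (167 and 124 against 198 to 231 CPM), whose part was not tested. It made up 33.7% of the collagen UMIs of branchiomeric muscle-like cells. At 5000 UMIs 61.8% of branchiomeric muscle-like and 62.6% of crest/glia-like cells had a UMI, against 0.284% of erythroid-like cells. Before thinning the shares were 78.6%, 91.6% and 1.71%.

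Col13a1, a collagen of the neuromuscular junction, was at 111 CPM in branchiomeric muscle-like, 86.8 CPM in neuron-like and 64.3 CPM in endothelium-like cells, with the order of the first 2 held in 4 of 4 libraries. In branchiomeric muscle-like cells the libraries had 126, 115, 78.0, 126, 99.3 and 119 CPM. Col23a1 was at 197 CPM in endothelium-like and 153 CPM in crest mesenchyme-like cells. Its libraries had 224, 188, 246, 183, 153 and 207 CPM in endothelium-like and 150.1, 145, 139.5, 155, 144 and 185 CPM in crest mesenchyme-like cells, higher in endothelium-like cells in 6 of 6. With classes from clusters the 2 were level (-0.0024 on the log2 scale). Col17a1, the hemidesmosome chain of skin, stayed under 1 CPM in every class.

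Col26a1, an unusual chain with a short collagen stretch, was at 235 CPM in branchiomeric muscle-like, 174 CPM in paraxial mesoderm-like, 110 CPM in mural-gated and 105.03 CPM in neuron-like cells. In branchiomeric muscle-like cells of libraries 1 to 6 it was at 269, 256, 271, 183, 186 and 208 CPM. Libraries 1, 2 and 3 were the highest. Its level in cells that passed no gate, 138 CPM, was above that in most classes.

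Type VI collagen, which forms beaded filaments around cells, was low at this stage. Col6a1 reached 18.0 CPM and Col6a2 11.1 CPM, both in epicardium-like cells, with cushion-like cells next at 10.8 and 7.93 CPM. In epicardium-like cells of libraries 1 to 6 Col6a1 was at 20.2, 20.6, 24.3, 9.62, 10.2 and 14.1 CPM. Libraries 3, 2 and 1 had the highest values. The epicardial marker Upk3b was higher in the same libraries, at 478, 483 and 596 CPM in libraries 1 to 3 against 286 to 318 CPM. So was Upk1b, at 287 to 330.4 against 206 to 258 CPM, and so were Wt1, Lrrn4 and Sema3d. Tbx18 and Tcf21 overlapped between these libraries and the others. Aldh1a2 was lowest in libraries 1 and 2, at 83.5 and 83.6 CPM, against 111 to 145 CPM in libraries 3 to 6. The part of these markers was not tested. Col6a1 and Col6a2 lie on the same strand of chromosome 10, 85161 bases apart, and had a rho of 0.975 across classes. Col6a3 reached 4.63 CPM in mural-gated cells, and Col6a4, Col6a5 and Col6a6 stayed under 1 CPM.

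The remaining genes were near the floor. Col8a1 and Col8a2, chains of the sheet under corneal and vessel endothelium, were highest in cardiomyocyte-like (8.92 CPM) and epicardium-like cells (9.19 CPM). Col16a1 reached 8.11 CPM in epicardium-like, Col14a1 5.26 CPM in mural-gated and Col20a1 9.87 CPM in crest/glia-like cells. Col7a1, the anchoring fibril chain of skin, reached 1.03 CPM in neuron-like cells. Col10a1, of growth plate cartilage, and Col28a1 stayed under 1 CPM in every class.

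Collagen genes varied more between libraries than genes in general in most classes with 6 libraries. In epicardium-like cells 7 of 19 collagen genes at 10 CPM differed at least 2-fold between the highest and lowest library, against 4.1% of all genes at 10 CPM there. In second heart field-like cells this was so for 5 of 20, against 4.27%, in endothelium-like cells for 3 of 14, against 2.23%, and in endoderm-like cells for 5 of 14, against 5.29%. In cushion-like cells it was 6 of 20, against 6.23%, in branchiomeric muscle-like cells 5 of 16, against 11.7%, in surface ectoderm-like cells 3 of 15, against 2.7%, and in crest mesenchyme-like cells 2 of 16, against 1.39%. No collagen gene reached it in cardiomyocyte-like cells (0 of 15, against 0.781%) or erythroid-like cells (0 of 1, against 1.23%). Counting error is part of each spread. The median spread of collagen genes was above that of all genes in each of the 10 classes, for example 1.61 against 1.22 in endothelium-like and 1.30 against 1.18 in cardiomyocyte-like cells. Which library belongs to which mother was not known here.

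Genes that make, finish or bind collagen were counted by list, beside all genes, of which 42.3% reached 10 CPM and 16.2% of these were at least 2-fold over the next class, with a median ratio of 1.15. All 19 genes of chain modification and folding reached 10 CPM. Cushion-like cells were the highest class of 10 of them, and of 808 of all 11843 genes at 10 CPM (6.82%). Their highest and next classes were close, with a median ratio of 1.16 and 3 genes at 2-fold: P4ha3, a prolyl hydroxylase subunit (cushion-like 11.8 against 5.44 CPM in endothelium-like cells), P3h4 (epicardium-like 175 against 85.2 CPM in cushion-like cells) and Colgalt2, a collagen galactosyltransferase (endothelium-like 13.4 against 6.09 CPM in cushion-like cells).

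Of the 15 genes of processing and crosslinking 11 reached 10 CPM (42.3% of all genes), with 2 of these at 2-fold (16.2% of all) and a median ratio of 1.499. Loxl1, a lysyl oxidase, was at 68.3 CPM in epicardium-like against 13.6 CPM in cushion-like cells, and Tll1, a procollagen protease, at 67.6 CPM in endothelium-like against 16.1 CPM in mural-gated cells. Pcolce2, an enhancer of that protease, was at 23.9 CPM in branchiomeric muscle-like against 12.0 CPM in epicardium-like cells, just under 2-fold.

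Of 9 receptors 6 reached 10 CPM and 3 of these were at 2-fold, against the same 42.3% and 16.2%, with a median ratio of 1.802. The inhibitory receptor Lair1 was at 22.1 CPM in myeloid-like cells against 0.114 CPM in endoderm-like cells. Itga2, an integrin chain, was at 24.2 CPM in endothelium-like against 6.49 CPM in cushion-like cells, and Ddr1, a receptor kinase, at 134 CPM in epicardium-like against 62.7 CPM in cardiomyocyte-like cells.

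Of 17 matrix partners 15 reached 10 CPM and 3 of these were at 2-fold, again against 42.3% and 16.2%, with a median ratio of 1.36. The 3 were the fibre-binding proteoglycans Dcn, at 255 CPM in epicardium-like against 75.6 CPM in endoderm-like cells, and Lum, at 41.9 CPM in paraxial mesoderm-like against 18.1 CPM in surface ectoderm-like cells, and Postn, which is one of the cushion markers and so not independent of that gate. The basement membrane partners Nid1 and Hspg2 were highest in endothelium-like cells, at 116 and 178 CPM, as were Col4a1 and Col4a2.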

How the data were processed

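Single-cell 3′ RNA libraries of 6 mouse samples were deposited as 1 pooled matrix. Per the file headers, the authors deposited whole-number UMI counts that Cell Ranger 5.0.0 had written. The submitters' processing notes also name CASAVA 1.8, Seurat 4 and the build mm10, and for the annotation release and cell calling these sources give nothing.

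Counts were summed per class and per library with Python 3.11.15, numpy 2.4.6, scipy 1.17.1 and pandas 2.3.3. A cell entered a class when UMIs of enough markers on its list were present (4 to 6, by list) and no other list passed; the cushion, mural and second heart field lists were used only where no other gate was passed, an order chosen after marker counts were seen. Intervals are exact 95% Poisson or binomial intervals and cover counting error only. No test was run: the libraries could not be put in groups, and differences between classes or splits within a library are given as counts of libraries that hold the order. Doublets were not removed, apart from cells in several gates; leaving out high scores is an alternative. Other settings changed the cell filter, the gates, the depth, the CPM limit, shared barcodes and the library set, or built classes from clusters (leidenalg 0.10.2). The planned comparison of streptozotocin with vehicle was not run. Sums were tested on simulated data. Genes were named by the rule that all 44 are accounted for and those at 10 CPM get values by class. Gene coordinates are from GENCODE M21. The collagen genes, gene lists and marker lists were chosen with earlier results of these data known.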

Additional observations from a re-analysis of the deposited data

How the results depend on the processing

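No paired analysis was possible because no file used here pairs the barcode suffixes with samples, so the replicate numbers of vehicle and streptozotocin could not be used. Classes and splits were compared within each library, as counts of libraries that hold an order, and no test was run on these. Counting intervals do not cover the spread between embryos, and in classes with under 30 cells in a library that library was not compared. The number of collagen genes at 10 CPM was 25 to 27 under every alternative to the gates and filters and when each library was left out (Col22a1 dropped out without library 6), 32 at 5 CPM and 21 at 20 CPM. The number holding their highest class in every library was 17 of 26 with classes from clusters, 9 of which were among the 11, and 11 to 14 when each library was left out. With 1 marker more for every list it was 9, of which 6 were among the 11. In thinned counts it was also 9, of which 8 were. With at least 2 UMIs per marker it was 11, of which 6 were. Col1a2, Col3a1, Col9a1, Col13a1 and Col25a1 were lost under both changes of the marker gates. The number at least 2-fold over the next class was 3 with a limit of 3-fold and 5 to 8 when each library was left out. With classes from clusters it was 8, of which 3 were among the 6. The other 3 lay under 2-fold against the next class of that setting, Col4a2 at 1.69, Col9a3 at 1.86 and Col12a1, with no mural class, at 1.83.

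The ratio of the summed level in endothelium-like to mural-gated cells was 1.17 without shared barcodes, 1.16 without cells of high UMIs, 1.20 as a median over libraries, 1.05 with broad lists counted like the others, 1.05 without endothelium-like cells in the cushion gate, and 1.078 to 1.23 when each library was left out. The highest class was kept by 14 of the 26 genes with clusters, 18 with at least 2 UMIs per marker, 19 with 1 marker more, 21 without the mural gate, 22 in thinned counts, 23 with broad lists counted like the others and 25 or 26 under each other setting. Of 485 ratios of single genes between the classes named above under an alternative, 357 stayed within the counting interval, 109 moved and 19 changed direction, in 8 genes; the cause was not tested. On the log2 scale Col18a1 was at -0.078 with 1 marker more, -0.10 with at least 2 UMIs per marker, -0.029 in thinned counts, -0.23 with clusters, -0.15 with broad lists counted like the others, -0.14 without endothelium-like cells in the cushion gate and -0.010 to 0.043 when each library was left out. Col2a1 was at -0.080 with at least 2 UMIs per marker. Col4a5 was at -0.19 and Col5a1 at -0.17 in thinned counts, and Col4a5 at -0.0051 without cells of high UMIs. With clusters Col23a1 was at -0.0024 and Col4a6 at -0.10. With broad lists counted like the others Col4a6 was at -0.044 and Col27a1 at -0.23. Col1a1 was at -0.25 as a median over libraries. Leaving out each library gave -0.022 to 0.51 for Col1a1, -0.0033 to 0.067 for Col4a6 and -0.027 to 0.14 for Col27a1. The 3 settings on broad lists, the mural gate and the cushion gate were chosen after seeing the data.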

Other observations

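Cells that passed no gate had a summed collagen level of 1233 CPM, 1103 to 1376 CPM by library, led by Col3a1 at 154 CPM and Col26a1 at 138 CPM.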
